A study of Ipomoea batatas with 28 samples.

Results

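Pencil roots of 3.5 mm were compared with thinner, fibrous roots of sweet potato (Ipomoea batatas), a hexaploid crop, to describe how messenger RNA differed once a root had begun to thicken. The 12 libraries compared, of 28 in the series, were the 4 of stage S10 (3.5 mm, replicates 1, 2, 3 and 5) and the 8 of stages S4 (1.5 mm, replicates 1, 2, 4 and 5) and S8 (2 mm, replicates 2, 3, 4 and 5). S4 and S8 are neighbouring fibrous stages and were taken as 1 group of 8 libraries, called fibrous roots here. All roots were wild type, and the labels call the 4 libraries of a stage biological replicates. RNA was taken from the middle of the root. The sources used here do not give the cultivar or the age of the plants. The other 16 libraries came from pencil roots of 5 mm (S12) and storage roots of 10 mm (S14), 15 mm (S16) and 25 mm (S20), with 4 libraries each, and were used to estimate the spread and to follow the IDs to later stages.

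Storage roots of sweet potato start as thin roots. In some of these the vascular cambium and further, secondary cambia form large amounts of parenchyma that stores starch, and the root thickens. In roots that stay fibrous the central cylinder becomes lignified. Pencil roots are roots that have thickened in part, and storage roots those that have swollen.

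The deposited values were TPM (transcript abundances), which divide the reads of a feature by its length and scale each library to the same total. A TPM value is therefore a share of the library, and a change in a few abundant transcripts moves the share of all others. In RNA from whole root pieces, fewer cells of a type and less RNA per cell cannot be told apart. Depth cannot be recovered from TPM, and the spread between replicates was the measure of error. Each row had an ID, which either joined a G to a TU number or began with MSTRG, and 0 of 99697 could be matched to the reference table of genes. The files do not pair the IDs with gene names, so no function, pathway or cell type marker can be given for any ID, and the tissue could not be checked against markers. A row is called an ID, since several rows can share a G number.

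S10 roots differed from fibrous roots in 4565 of 75757 IDs tested, or 6.03%, with 2913 IDs higher (3.85%) and 1652 lower (2.18%) at S10. The IDs tested had at least 1 TPM in at least 4 of the 28 libraries. An ID was called where the log2 fold of TPM + 1 was at least 1 in size and limma's adjusted p was under 0.05 (limma over all 28 libraries, Benjamini-Hochberg adjustment). The folds were moderate. Their median was 1.29 on the log2 scale among the higher IDs, with quartiles of 1.11 and 1.60, and -1.39 among the lower IDs, with quartiles of -1.67 and -1.17. Folds of 4 or more were found for 308 higher and 191 lower IDs, and folds of 8 or more for 42 and 19. The pseudocount of 1 understates the change of low IDs.

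Which direction was more frequent depended on how the libraries were scaled. In TPM as deposited 63.8% of the calls were higher at S10, and the median log2 fold of all IDs tested was 0.15. Median-of-ratios scaling sets the median ratio of IDs to their geometric mean equal between libraries. It gave 1434 IDs higher and 3271 lower at S10, so that 30.5% of the calls were higher, and the median fold was -0.02. Quantile normalization gave 1574 higher and 2269 lower IDs (41.0% higher), with a median fold of 0.02. The size factors of the median-of-ratios scaling were 0.972 ± 0.0377 for the S10 libraries (SD, n = 4) and 0.781 ± 0.0914 for the fibrous libraries (SD, n = 8), and the ranges, 0.919 to 1.01 at S10 and 0.652 to 0.893 in fibrous roots, did not overlap. The calls made in the same direction under all 3 scalings were 1394 higher (1.84% of the IDs tested) and 1614 lower (2.13%). They were chosen after the data were seen and are used below to describe the change, because their direction does not depend on the scaling. Their median log2 fold in TPM as deposited was 1.57 for the higher and -1.39 for the lower IDs. The balance of higher and lower IDs among these calls still depends on the scalings. The higher ones are limited by the 1434 of median-of-ratios scaling and the lower ones by the 1652 of TPM as deposited.

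The rule for naming IDs took, in each direction, the ID with the largest fold and the ID with the largest difference in mean TPM, among called IDs whose S10 and fibrous libraries did not overlap. G999_TU1643 had the largest rise by fold among these IDs, where the higher group averaged 10 TPM or more. It held 216, 397, 65.5 and 138 TPM in S10 replicates 1, 2, 3 and 5, against 3.23, 29.1, 21.1 and 5.11 TPM in S4 replicates 1, 2, 4 and 5 and 0, 20.3, 10.3 and 14.3 TPM in S8 replicates 2, 3, 4 and 5. Every S10 library was above every fibrous library, but the S10 libraries differed among themselves, with replicate 2 far above replicate 3. The means were 204 ± 142 TPM at S10 (SD, n = 4) and 12.9 ± 10.1 TPM in fibrous roots (SD, n = 8), a log2 fold of 4.15 with a standard error of 0.74 (adjusted p = 0.000717, limma). Its G number had 2 IDs, and their sum also rose, by a log2 fold of 3.87 with a standard error of 0.65 (adjusted p = 0.000354, limma). In pencil roots of 5 mm its mean was 262 TPM, and in storage roots it was 102 TPM at S14, 179 TPM in the S16 libraries and 41.1 TPM in the S20 libraries.

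G21775_TU35591 gained most TPM among the called IDs without overlap. It was already abundant in fibrous roots. It held 2934, 3721, 2619 and 3401 TPM in S10 replicates 1, 2, 3 and 5, against 1454, 461, 1587 and 2022 TPM in the 4 S4 libraries and 553, 1564, 1009 and 1502 TPM in the 4 S8 libraries. The lowest S10 library stood above the highest fibrous library, S4 replicate 5. The log2 fold was 1.46 with a standard error of 0.31 (adjusted p = 0.00246, limma), with means of 3169 ± 488 TPM at S10 (SD, n = 4) and 1269 ± 545 TPM in fibrous roots (SD, n = 8). The mean was 3794 TPM at S12 and 3189 TPM at S14, then 2821 TPM at S16 and 1576 TPM at S20. The sum over the 2 IDs of its G number had a log2 fold of 1.40 with a standard error of 0.30 (adjusted p = 0.00258, limma).

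MSTRG.55036 had the largest fall by fold among the called IDs without overlap that averaged 10 TPM or more in fibrous roots. It held 1.43, 0.17, 2.09 and 0.4 TPM in S10 replicates 1, 2, 3 and 5, against 23.4, 18.5, 56.9 and 141 TPM in the S4 libraries and 34.8, 569, 4.38 and 47.8 TPM in the S8 libraries. The fibrous libraries spread widely, with S8 replicate 3 far above and S8 replicate 4 far below the rest. Its log2 fold was -4.63 with a standard error of 0.69 (adjusted p = 0.000149, limma), with means of 1.02 ± 0.898 TPM at S10 (SD, n = 4) and 112 ± 189 TPM in fibrous roots (SD, n = 8). It stayed low afterwards and was listed at 0 in every S14 and S20 library.

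G1341_TU2256 lost most TPM among the called IDs without overlap. It held 1104, 461, 1568 and 1303 TPM in S10 replicates 1, 2, 3 and 5, against 2110, 3400, 3546 and 2940 TPM in the S4 libraries and 2823, 2731, 2634 and 3411 TPM in the S8 libraries. The highest S10 library lay below the lowest fibrous library, and the S10 libraries were the more uneven in relative terms. Its log2 fold was -1.53 with a standard error of 0.37 (adjusted p = 0.00640, limma), with means of 1109 ± 472 TPM at S10 (SD, n = 4) and 2950 ± 484 TPM in fibrous roots (SD, n = 8). The S12 libraries held a mean of 476 TPM, the S14 libraries 88.7 TPM, the S16 libraries 282 TPM and the S20 libraries 81.4 TPM. S10 replicate 2 was the most extreme S10 library for all 4 named IDs.

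**Figure D1:**
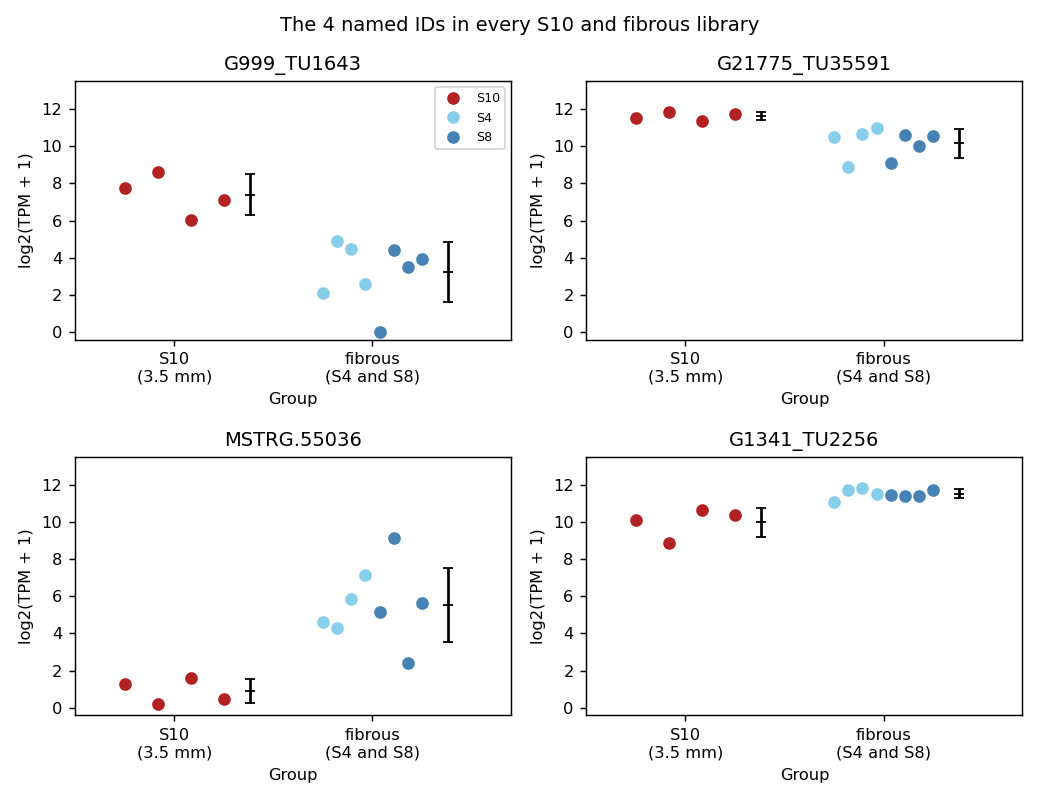
Level of the 4 named IDs in each library, as log2(TPM + 1). Points are libraries (S10 red, S4 light blue, S8 dark blue), and the black marks are the mean and SD of the group on the log2 scale (n = 4 at S10, n = 8 in fibrous roots). S10 and fibrous libraries do not overlap in any panel, which the rule for naming required.

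A stricter test asked whether the fold exceeded 2 beyond its error (limma's treat against a log2 fold of 1, adjusted p under 0.05). It left 27 IDs, or 0.0356% of those tested, 16 higher and 11 lower at S10. The 16 higher IDs had log2 folds of 2.03 to 4.05 (median 2.99), with means of 7.96 to 341 TPM at S10 and 0.379 to 21.6 TPM in fibrous roots. The 11 lower IDs had log2 folds of -4.63 to -2.31 (median -2.94), with means of 0.378 to 29.6 TPM at S10 and 10.8 to 192 TPM in fibrous roots. All 27 were also called under the 3 scalings, and in all 27 the S10 and fibrous libraries did not overlap. MSTRG.55036 was among them and the other 3 named IDs were not. The later stages lay further from the fibrous level than S10 did, with a median difference of 3.98 at S12 and 3.46 at S20 for the higher IDs and of -3.50 at S12 and -4.06 at S20 for the lower IDs.

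In TPM as deposited, all 4 S10 libraries stood above all 8 fibrous libraries for 5507 IDs (7.27% of those tested) and below them for 1368 IDs (1.81%). Among the called IDs this held for 1635 of 2913 higher and 830 of 1652 lower IDs. The remaining calls therefore had at least 1 S10 library within the range of the fibrous libraries.

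The called IDs held a modest part of the transcriptome. The 1394 IDs higher under all 3 scalings took 4.09%, 5.45%, 3.39% and 4.22% of the TPM in S10 replicates 1, 2, 3 and 5, against 0.776% to 1.56% in the 8 fibrous libraries (median 1.16%). The 1614 lower IDs took 2.02%, 1.40%, 2.37% and 2.15% in the same S10 libraries, against 4.93% to 7.96% in the fibrous libraries (median 6.39%). S10 replicate 2 was the S10 library with the most TPM in the higher and the least in the lower IDs, and S10 replicate 3 the reverse. The lists were chosen on these libraries, so their shares are a description with no test.

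**Figure D2:**
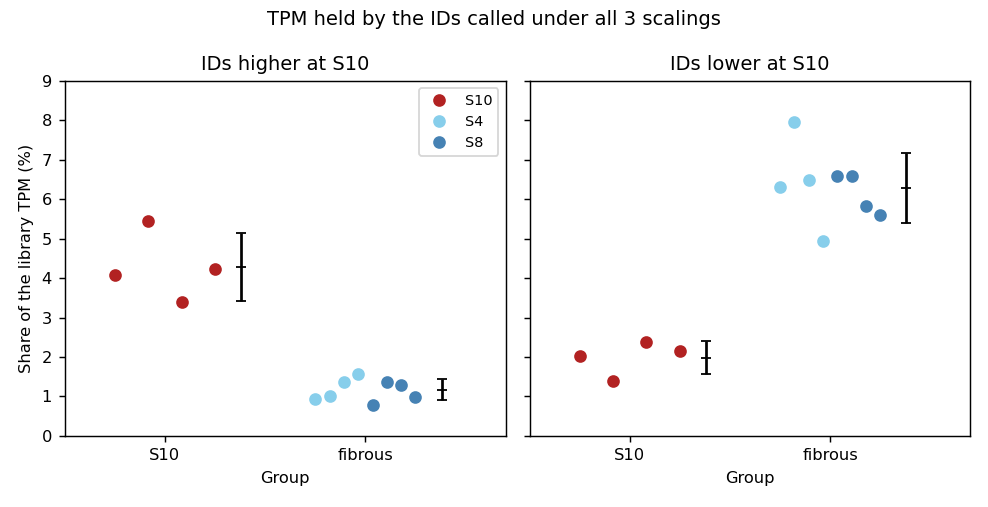
Share of the library TPM (%) held by the 1394 IDs higher (left) and the 1614 IDs lower (right) at S10 under all 3 scalings. Points are libraries (S10 red, S4 light blue, S8 dark blue) and black marks are the mean and SD (n = 4 at S10, n = 8 in fibrous roots). The higher IDs hold 3.39% to 5.45% at S10 and at most 1.56% in fibrous roots.

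Losses of TPM were more concentrated in a few IDs than gains. Over all rows, the IDs with a higher mean at S10 gained a total of 21.6% of the TPM, which equals what the others lost. With 4 libraries on each side the same quantity was 21.8% between S10 and S4, 22.3% between S10 and S8 and 9.43% between S8 and S4, which shows how much arises between fibrous stages. The 10 largest losses made up 14.4% of all losses, against 3.98% of all gains for the 10 largest gains. The 50 largest made up 28.6% and 10.9%. Of those 50, 13 of the losses and 30 of the gains were called, and in 17 of the losses and 24 of the gains the S10 and fibrous libraries did not overlap. Over all IDs tested 2.18% were called lower and 3.85% higher, but these IDs were picked by the same difference, so nothing can be read from their counts. The fibrous libraries themselves differed in how much TPM their abundant IDs held, as described below.

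The share of IDs called differed between levels, in part by construction. The level was the mean of the S10 and the fibrous mean. Of 20730 IDs tested under 1 TPM, 0.232% were higher and 0.164% lower at S10. An ID at this level can seldom reach the required fold in TPM + 1, so the pseudocount keeps these shares low. Such an ID can also have passed the filter through later stages. At 10 to 50 TPM 6.88% of 12725 IDs were higher and 3.86% lower. At 100 TPM or more 5.70% of 1455 IDs were higher and 7.42% lower, so that the direction turned. In TPM as deposited the higher IDs outnumbered the lower ones in every class below 100 TPM. Among the calls made under all 3 scalings the lower IDs were the more numerous from 5 TPM upwards, with 2.54% higher and 5.57% lower at 100 TPM or more.

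**Figure D3:**
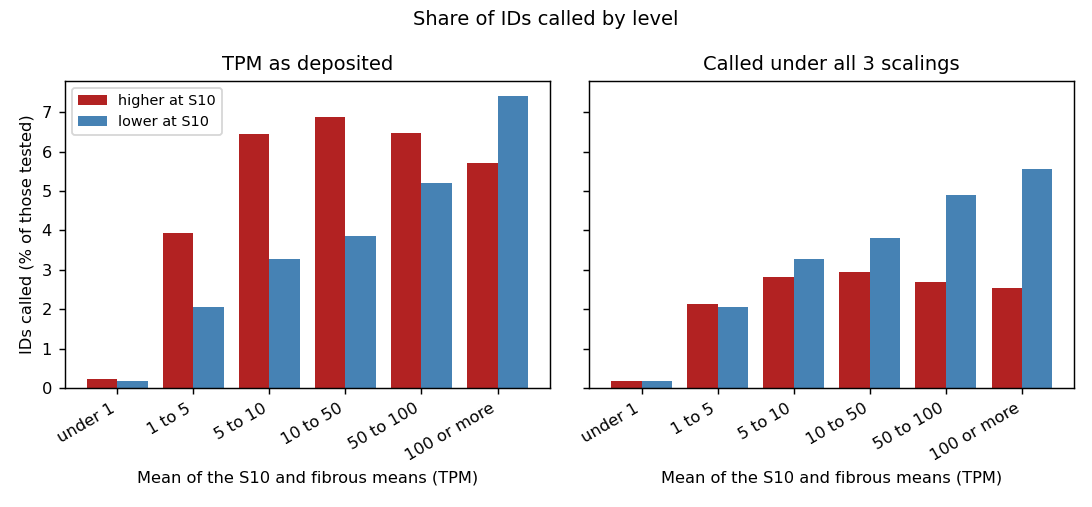
Percent of tested IDs called higher (red) and lower (blue) at S10, by the mean of the S10 and fibrous means in TPM. Left, TPM as deposited; right, calls made under all 3 scalings. At 100 TPM or more the lower IDs are the larger group in both panels, at 7.42% and 5.57%.

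The 2 kinds of ID differed little in the lower calls. Of 18601 MSTRG IDs tested, 2.95% were higher and 2.20% lower at S10, and of 57156 IDs with a G and TU number 4.14% were higher and 2.17% lower. No test was made of this difference. When the TPM of IDs that share a G number was summed, 4009 of 61401 sums were called (6.53%; limma, as above), 2571 higher and 1438 lower. These sums split into 1276 higher and 2857 lower after median-of-ratios scaling, and quantile normalization split them into 1382 and 2015. Of 10816 G numbers with at least 2 tested IDs, 1243 had a called ID, and in 1238 of these the called IDs went in 1 direction only. In 993 a single ID was called, and in 245 at least 2 were called in the same direction. For 472 of the 1243 the sum was not called, and for 109 G numbers the sum was called although no single ID was. In a hexaploid, near-identical copies can share reads, so the division of TPM between IDs of a locus is uncertain.

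The 4 S10 libraries stood at different distances from fibrous roots. Each library was placed on the line from the fibrous mean (0%) to the mean of S14 (100%), the thinnest storage roots, over all IDs tested on the log2 scale. S10 replicates 1, 2, 3 and 5 stood at 33.4%, 45.4%, 26.3% and 33.8%, against -5.80% to 7.25% for the 8 fibrous libraries. No S10 library came near the fibrous range, and replicate 2 was close to the lowest S12 library at 48.0%. The order of the 4 libraries was the same under median-of-ratios scaling (34.3%, 47.7%, 28.4% and 34.8%), quantile normalization (32.4%, 45.4%, 27.4% and 32.9%) and the use of the S20 mean as end point (18.3%, 28.3%, 13.6% and 20.7%). The fibrous and S14 libraries define the line, so these positions are a description with no test.

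**Figure D4:**
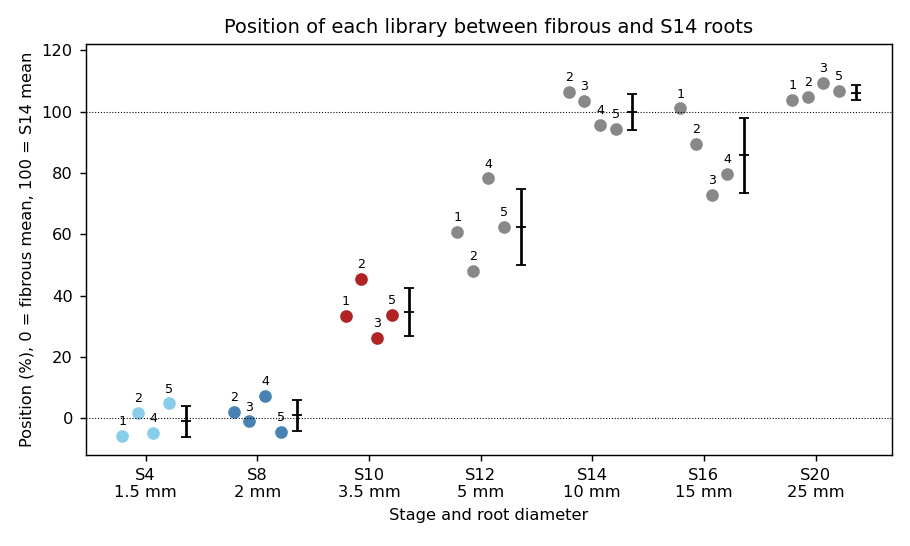
Position of each library between the fibrous mean (0%) and the S14 mean (100%), over all IDs tested, by stage and root diameter. Numbers are replicate numbers and black marks are the mean and SD of the stage (n = 4). The S10 libraries (red) lie between 26.3% and 45.4%, above all fibrous libraries (blue), which reach 7.25%.

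S10 replicate 2 was also the most extreme S10 library for the largest number of the IDs called under all 3 scalings. Among the 1394 higher IDs it was the highest S10 library for 50.9%, against 6.24% for replicate 1, 17.1% for replicate 3 and 25.8% for replicate 5. Among the 1614 lower IDs it was the lowest for 44.3%, against 12.8%, 26.2% and 16.7% for replicates 1, 3 and 5. Median-of-ratios scaling put the shares of replicate 2 at 50.6% and 44.7%, and quantile normalization put them at 51.7% and 44.7%. The same shares were not computed over all IDs tested. A trait of the called IDs can therefore not be told apart from a trait of this library. In TPM as deposited, replicate 1 lay above every fibrous library for 95.7% of the higher IDs. This share was 87.6% for replicate 2, 80.4% for replicate 3 and 91.7% for replicate 5. For the lower IDs the 4 libraries were more alike, with 78.6%, 75.8%, 77.1% and 73.4% of them below every fibrous library in replicates 1, 2, 3 and 5. Both lists were chosen on these libraries, so high shares were fixed by the choice. Over all IDs tested, 20.8% to 25.1% lay above the fibrous range in an S10 library and 6.37% to 9.58% below it, also in TPM as deposited. These shares were not computed under the other scalings, on which the more frequent direction of the calls depends.

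The median step between the fibrous stages was small for the called IDs. The difference between S8 and S4 is orthogonal to that between S10 and their common mean, which set the fold of the called IDs. Calls also needed an adjusted p, from a fit in which S4 and S8 formed the same group. A step between S4 and S8 adds to the spread within that group, so IDs with large steps were less likely to be called. The size of the steps in the lists is therefore not free of the choice of IDs. The median of the S8 minus S4 difference was -0.03 on the log2 scale for the 1394 higher IDs, with quartiles of -0.32 and 0.23. For the 1614 lower IDs it was -0.02, with quartiles of -0.33 and 0.22. Over all IDs tested it was 0.03, with narrower quartiles of -0.16 and 0.23, so the steps of single called IDs spread more widely than those of all IDs. Of the higher IDs 45.6% were above 0 in this step and of the lower IDs 47.1%, against 54.1% of all IDs tested. An unadjusted p under 0.05 in this step (limma) was found for 194 of the 3008 IDs (6.45%), against 3034 of all 75757 (4.005%). With median-of-ratios scaling the medians were -0.05 for the higher, -0.04 for the lower and 0.02 for all IDs. Relative to all IDs, the medians of both lists were thus slightly lower at S8 than at S4, which is the direction of the S10 difference for the lower IDs and the opposite one for the higher IDs. The shift of the lists was not tested.

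A comparison of pencil with fibrous roots that shares no library with S10 against S4 is S12 against S8. Each was fitted to its own 8 libraries. S10 against S4 gave 298 higher IDs (0.393% of those tested) and 141 lower IDs (0.186%; limma), and S12 against S8 gave 7303 (9.64%) and 3753 (4.95%). Of the 298 IDs, 231 (77.5%) were also higher at S12, and of the 141, 98 (69.5%) were also lower at S12, while 0 were called in the opposite direction. The shared IDs were 3.16% of the longer higher list and 2.61% of the longer lower list. The median S12 minus S8 difference was 1.75 for the 298 and -1.89 for the 141, against 0.27 over all IDs tested. With median-of-ratios scaling the S10 against S4 calls split into 153 higher and 363 lower IDs, and the S12 against S8 calls into 3628 and 6213. The shared IDs were looked up in TPM as deposited only, and the overlap of the rescaled lists was not computed. The S10 against S4 count was fragile. Leaving out S4 replicate 2, 4 or 5 gave 13, 0 or 692 calls, and leaving out S10 replicate 1, 2, 3 or 5 gave 28, 110, 68 or 43. Without S4 replicate 4, where limma called 0 IDs, 14443 had an unadjusted p under 0.05.

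The medians of both lists lay further from the fibrous level at S12 than at S10. After S12 that of the higher IDs came back towards the fibrous level and was below its S10 value at S20, while that of the lower IDs stayed beyond its S12 value at every later stage. The median log2 difference from fibrous roots of the 1394 higher IDs was 1.57 in S10, 1.99 in S12, 1.88 in S14, 1.80 in S16 and 1.38 in S20 roots. For the 1614 lower IDs it was -1.39, -1.72, -2.09, -1.82 and -2.21 at the same stages. Over all IDs tested the medians were 0.15, 0.28, 0.44, 0.44 and 0.43. With median-of-ratios scaling the higher IDs stood at 1.38, 1.67, 1.43, 1.34 and 1.04 and the lower IDs at -1.68, -2.11, -2.52, -2.28 and -2.60. All these differences share the fibrous libraries. The spread between IDs was wide, and at S20 the lower quartile of the higher IDs was 0.53. The mean was highest at S12 for 33.6% of the higher IDs and at S10 for 16.2%, while 50.9% of the lower IDs were lowest at S20 and 13.8% at S10. These shares are in TPM as deposited and were not computed over all IDs tested. Whether they are particular to the called IDs is therefore not known.

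**Figure D5:**
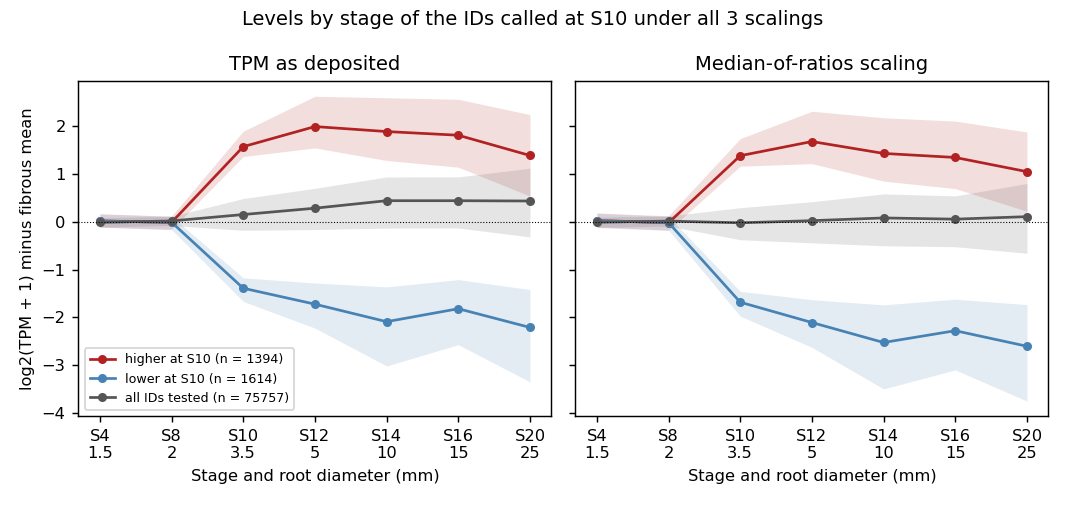
Median log2(TPM + 1) relative to the fibrous mean, by stage and root diameter in mm, of the 1394 IDs higher (red) and 1614 IDs lower (blue) at S10 and of all 75757 IDs tested (grey). Bands span the quartiles over IDs; left, TPM as deposited; right, median-of-ratios scaling. The higher IDs peak at S12 (1.99 on the left) and the lower IDs are lowest at S20 (-2.21 on the left).

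The step from S12 to S14, the change from pencil to storage roots, shares no library with S10 or the fibrous roots. Its median log2 difference was -0.09 for the 1394 higher IDs and -0.38 for the 1614 lower IDs, against 0.10 over all IDs tested. With median-of-ratios scaling the medians were -0.20, -0.42 and 0.01. Fitted to its own 8 libraries, this step called 1123 IDs higher (1.48% of those tested) and 771 lower (1.02%) at S14 (limma). With median-of-ratios scaling it called 661 higher and 915 lower. The look-up was made in the calls from TPM as deposited only. The lists looked up came from a fit and scalings that used all 28 libraries, S12 and S14 among them. The look-up is therefore not fully independent of how the lists were chosen. Of the 1394 IDs, 16 (1.15%) were called higher and 55 (3.95%) lower, and of the 1614 IDs, 19 (1.18%) were called higher and 68 (4.21%) lower. Of the 771 IDs lower at S14, the 55 were 7.13% and the 68 were 8.82%, and of the 1123 higher at S14, the 16 were 1.42% and the 19 were 1.69%. The count of this step, 1894, also moved with single libraries. Leaving out S12 replicate 1, 2 or 5 gave 160, 211 or 194 calls, and leaving out S14 replicate 2, 3 or 5 gave 392, 51 or 512.

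Measures of whole libraries differed between the groups by less clear margins. S10 libraries had 53397 ± 1096 IDs at 1 TPM or more (SD, n = 4) and fibrous libraries 50817 ± 2321 (SD, n = 8). IDs were counted in TPM as deposited only. Such a count depends on how the libraries are scaled, and it was not repeated after rescaling. The difference of 2579 passed the threshold (exact permutation test, two-sided, with 495 ways to choose 4 of 12 libraries; p = 0.0444, and 0.0444 adjusted over the 3 measures), but the groups overlapped, since S10 replicate 3 had 51799 and S4 replicate 2 had 53493. The call was lost without any of 8 libraries (S4 replicates 1, 4 and 5, S8 replicates 2 and 5, and S10 replicates 1, 2 and 5), with an exact permutation adjusted p of up to 0.121. The 1000 most abundant IDs of a library held 37.0% ± 1.63 of its TPM at S10 (SD, n = 4) and 43.1% ± 5.01 in fibrous roots (SD, n = 8), a difference of -6.08 percentage points (exact permutation p = 0.0162, adjusted 0.0242). The S10 libraries spanned 34.7% to 38.6%. The fibrous libraries fell into a lower and an upper part, with S4 replicates 2 and 5 and S8 replicates 3 and 4 at 37.9% to 39.9%, and the other 4 at 44.8% to 49.6%. This call was lost without S10 replicate 1 or 5 (exact permutation adjusted p = 0.0727 in each case). MSTRG IDs held 10.6% ± 0.191 of the TPM at S10 (SD, n = 4) and 11.03% ± 0.220 in fibrous roots (SD, n = 8), a difference of -0.439 points (exact permutation p = 0.0121, adjusted 0.0242). It was lost without S10 replicate 1, 2 or 5, at exact permutation adjusted p-values of 0.0545 to 0.0727. The smallest p these 12 libraries allow is 0.00404. The part of these library measures in the counts of called IDs was not tested.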

How the data were processed

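Root mRNA was sequenced in 28 libraries, 4 at each of 7 stages. The authors deposited 1 table of TPM values with 99697 rows, and TopHat2 2.0.0 and RSEM 1.3.1 are named, per the submitters' processing notes, with no role given. The genome build and the annotation are not given in the sources used here. Column sums were equal within rounding and no libraries were identical. Depth was unknown, so no counting interval was computed.

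Libraries were grouped by the labels. The 75757 IDs that reached 1 TPM in 4 or more libraries were analysed as log2(TPM + 1) with limma 3.58.1 in R 4.3.3, fitted to 6 groups over 28 libraries with a trended prior. Calls needed an adjusted p (Benjamini-Hochberg) under 0.05 and an absolute log2 fold of 1 or more. Permutation tests used SciPy 1.17.1, with NumPy 2.4.6, pandas 2.3.3 and Python 3.11.15, and plots Matplotlib 3.10.9. The steps were tested on simulated data.

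IDs named were, per direction, the largest fold where the higher group averaged 10 TPM or more and the largest difference of TPM, among called IDs without overlap. The groups, lists and tests were chosen with earlier results of these data known. Alternatives were pseudocounts, filters, scalings, the libraries fitted, the fibrous group, library weights, thresholds, a replicate block and the removal of single libraries. Calls under all 3 scalings, positions under other scalings and end points, and medians after rescaling were added after the data were seen.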

Additional observations from a re-analysis of the deposited data

Results flagged for a closer look

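Of 32 groups of 4 or 8 libraries looked at (3 library measures, the 4 named IDs and the positions, each at S10, S4, S8 and in the fibrous roots as a whole), 2 held a value far from the rest, and chance gives about 1 in 20. MSTRG.55036 stood at 569 TPM in S8 replicate 3, far above the other S8 libraries and above all other fibrous libraries, which held 4.38 to 141 TPM. Both flags come from this value, which exceeds the S10 libraries as the other fibrous values do.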

How the results depend on the processing

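The count of 4565 calls (2913 higher, 1652 lower; 4009 for sums over G numbers, 2571 and 1438) was 7127 (5214 higher) with a pseudocount of 0.1 and 1548 (821 and 727) with 5, and for the sums 6446 (4694 higher) and 1445 (774 and 671). It was 11465 (8661 and 2804) with no fold threshold, 27 (16 and 11) with treat and 3008 (1394 and 1614) under all 3 scalings. Median-of-ratios scaling gave 1434 higher and 3271 lower (sums 1276 and 2857), and quantile normalization 1574 higher (sums 1382). Filters, library weights, the libraries fitted and the choice of S4 or S8 as the fibrous roots kept the count within 1.5 times.

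With 1 library left out in turn the count ran from 3424 to 5056 (2176 to 3312 higher, 1248 to 1793 lower), and for the sums from 3188 to 4477 (2031 to 2947 and 1157 to 1560). It ran from 0 to 692 for S10 against S4, 8614 to 11422 for S12 against S8 and 51 to 2344 for S14 against S12, and a pseudocount of 5 gave 188, 4579 and 733. The difference in IDs at 1 TPM or more ran from 1997 to 3112, that in the share of the 1000 most abundant IDs from -6.81 to -5.14 points and that of MSTRG IDs from -0.515 to -0.361.

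Against S4 alone the differences of these 3 measures were 3099 IDs, -6.14 and -0.532 points, and against S8 alone 2060 IDs, -6.01 and -0.345 points. None of these 6 passed the adjusted threshold with 4 libraries on each side. The share of the 100 most abundant IDs differed by -5.11 points (exact permutation adjusted p = 0.117), and that of MSTRG IDs past the filter by -0.352 (adjusted p = 0.0566).

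The 4 named IDs kept their direction under 26 alternatives each. MSTRG.55036 kept its call in all 26, with a log2 fold from -5.76 to -3.17, and the other 3 in 25, losing it under treat (limma adjusted p = 0.164 for G999_TU1643 and 1 for the other 2). These IDs were picked for large differences without overlap in the same libraries. That most calls were kept was therefore in part fixed by the choice.

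With the replicate number as a block 5022 IDs were called (3245 higher, 1777 lower; sums 4414, 2872 and 1542), and no named ID changed its call. The numbers were not taken to pair the libraries, since the deviations of same-numbered libraries correlated over 0.1 in 2 of 9 pairs, with a range of -0.0915 to 0.192. The replicate numbers are those of the column labels. The sample titles number the libraries differently, in order within each stage. Libraries with the same title number correlated from -0.0770 (S8 and S10 replicate 5) to 0.331 (S4 replicate 1 and S8 replicate 2). No block was fitted by title number, so pairing by it was not tested. TPM holds no depth, so what depth limits is unknown.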
